A study of Mus musculus with 6 samples.

Results

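The 5 immediate early genes described here are Arc (probe ASMM10P007491), Dusp1 (ASMM10P015787), Egr4 (ASMM10P033423), Junb (ASMM10P039612) and Nr4a1 (ASMM10P013972), each measured by 1 probe. They are 5 of the 43528 probes tested and of the 60915 probes read on arrays of mouse hippocampus. Hippocampal RNA of 3 Nrf2 (+/+) mice, the wild type, and 3 Nrf2 (-/-) mice, a knockout of the Nrf2 gene for which the labels name no restriction to a tissue, was hybridized with Cy3 to Arraystar mouse lncRNA arrays that also carry mRNA probes, 1 array per mouse. All 6 mice were of the ICR strain and aged 3-4 months, with no treatment named in the labels. The study's methods name the sex, male, beside the Nrf2 (+/+) mice only. All mice were killed with isoflurane before hippocampal tissue was taken. The sources used here do not say whether the mice were littermates or what they did before death. The genes were chosen by their genotype difference, since the study listed them among the mRNAs that differed between the genotypes at an unadjusted p under 0.05 and a fold change above 1.5. The genotype difference of these 5 probes is therefore given as a description with no test, and the p also depends on the spread of each gene between mice of 1 genotype. Whether the genes vary together between these mice was not used to choose them.

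Immediate early genes are transcribed within minutes of a stimulus, such as synaptic activity or a growth factor, without the need for new protein synthesis. Calcium and MAP kinase signaling reach their promoters through transcription factors already present in the cell, among them CREB and the serum response factor. In the hippocampus they are widely used as markers of recent neuronal activity, and the mRNAs are short-lived.

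Of the 5 genes, 3 encode regulators of transcription. Egr4 is a zinc finger protein of the early growth response family, Junb is a subunit of the AP-1 transcription factor, and Nr4a1 is an orphan nuclear receptor. Dusp1 encodes a phosphatase that inactivates MAP kinases and so dampens the signal that induces it. Arc encodes a cytoskeleton-associated protein of synapses whose mRNA travels into dendrites. Arc and Nr4a1 lie on chromosome 15, Dusp1 on chromosome 17, Egr4 on chromosome 6 and Junb on chromosome 8.

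The promoters are shown for their CREB sites, which the choice of the genes did not use. Of the 5 genes, 4 matched the RefSeq promoter table and Arc did not. Below are the 250 bases before the annotated start of these 4 genes, 5′ to 3′ on the strand of the gene, from RefSeq on GRCm38.p6. Capitals mark the CRE core, TGACG on either strand, to which CREB binds. The windows lie at chr17:26508473-26508722 on the minus strand for Dusp1, chr6:85513590-85513839 on the minus strand for Egr4, chr8:84978749-84978998 on the minus strand for Junb and chr15:101266596-101266845 on the plus strand for Nr4a1.
Dusp1: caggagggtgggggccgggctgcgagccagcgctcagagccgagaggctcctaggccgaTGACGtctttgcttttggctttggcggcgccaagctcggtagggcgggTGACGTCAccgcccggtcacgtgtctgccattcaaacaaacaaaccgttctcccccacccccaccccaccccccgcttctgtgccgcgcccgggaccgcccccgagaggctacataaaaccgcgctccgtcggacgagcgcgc
Egr4: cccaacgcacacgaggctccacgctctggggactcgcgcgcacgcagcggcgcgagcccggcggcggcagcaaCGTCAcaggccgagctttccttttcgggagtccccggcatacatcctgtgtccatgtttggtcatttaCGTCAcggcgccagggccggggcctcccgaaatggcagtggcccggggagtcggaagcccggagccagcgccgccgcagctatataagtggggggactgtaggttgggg
Junb: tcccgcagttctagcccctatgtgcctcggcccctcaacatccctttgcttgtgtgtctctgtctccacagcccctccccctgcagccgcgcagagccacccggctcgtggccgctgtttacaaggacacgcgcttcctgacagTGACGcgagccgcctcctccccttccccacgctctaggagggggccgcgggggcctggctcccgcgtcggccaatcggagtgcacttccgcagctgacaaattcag
Nr4a1: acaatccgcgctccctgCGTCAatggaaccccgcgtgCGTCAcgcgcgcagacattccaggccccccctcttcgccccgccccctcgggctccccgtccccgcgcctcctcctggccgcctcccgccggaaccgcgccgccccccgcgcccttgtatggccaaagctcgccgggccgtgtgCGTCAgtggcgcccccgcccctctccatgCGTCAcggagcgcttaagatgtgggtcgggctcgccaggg

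All 4 windows held at least 1 CRE core, which 17.9% of the 32536 distinct windows of the same length in the RefSeq table held. Nr4a1 had 4 matches, Dusp1 3, Egr4 2 and Junb 1. In Dusp1, 2 of the matches overlap as the full CRE, TGACGTCA, which 1.56% of all windows held and the other 3 genes did not. The EGR site GCGNGGGCG, the sequence bound by Egr proteins, was in the Nr4a1 window (4.74% of all windows). The CArG box of the serum response element (1.48% of all windows) and the AP-1 site TGANTCA (6.73%) were in none of the 4. The core of the antioxidant response element, TGACNNNGC, to which Nrf2 binds, was in the windows of Dusp1 and Egr4 (10.2% of all windows), and in Egr4 it overlaps a CRE core. These are matches of letters on both strands and no measure of binding.

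The targeted gene followed the labels. The probe of Nfe2l2, the gene of Nrf2, read log2 signals of 12.40, 11.93 and 12.28 in Nrf2 (+/+) mice and of 7.95, 7.82 and 8.02 in Nrf2 (-/-) mice. Signals before normalization were higher on the Nrf2 (-/-) arrays, with array medians of 138 to 184 against 87.7 to 109, and 65.5% to 75.7% of the probes per array were well above background. No spot was saturated. Replicates 1 of both genotypes were scanned together, as were replicates 3, whereas both replicates 2 were scanned alone, so that differences within a scan can be given for replicates 1 and 3. The reference genes printed in 20 spots each gave a median SD between spots of 0.031 to 0.057 on the log2 scale per array, against 1 spot per array for each immediate early gene. Of 15 reference genes, 14 differed by -0.23 to 0.19 between the genotypes on the log2 scale and Actb, named after its value was seen, by 0.77. The number of arrays, 3 per genotype, limits the precision of every value below.

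The 5 genes were higher in Nrf2 (-/-) hippocampus, by 1.61- to 2.11-fold between the means, and for each gene all 3 Nrf2 (-/-) arrays lay above all 3 Nrf2 (+/+) arrays. Signals are log2 background-subtracted intensities after quantile normalization, which gives the 6 arrays the same distribution, and a difference of 1 is a doubling. All 5 probes were well above background on 6 of 6 arrays. In bulk tissue, more RNA per cell cannot be told apart from more cells of a type that carries it.

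Arc, the synaptic gene, had log2 signals of 9.18, 9.77 and 9.61 in Nrf2 (+/+) replicates 1, 2 and 3 and of 10.38, 10.75 and 10.67 in Nrf2 (-/-) replicates 1, 2 and 3. The genotypes did not overlap, and the lowest Nrf2 (-/-) array stood 0.61 above the highest Nrf2 (+/+) array. The means were 9.52 ± 0.30 and 10.60 ± 0.20 (SD, n = 3), a log2 difference of 1.08 or 2.11-fold. This was the largest difference of the 5 genes.

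Dusp1, the MAP kinase phosphatase, had log2 signals of 13.86, 14.06 and 14.11 in Nrf2 (+/+) mice and of 14.39, 15.15 and 14.91 in Nrf2 (-/-) mice. Nrf2 (-/-) replicate 1 was closest to the wild-type mice, with a gap of 0.28, and the knockout mice were more spread out. The means were 14.01 ± 0.14 and 14.82 ± 0.39 (SD, n = 3), a log2 difference of 0.81 or 1.75-fold.

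Among the transcription factors, Egr4 had log2 signals of 14.25, 14.44 and 14.40 in Nrf2 (+/+) mice and of 14.65, 15.38 and 15.17 in Nrf2 (-/-) mice. As for Dusp1, the wild-type mice were tightly grouped, and Nrf2 (-/-) replicate 1 was the closest to them, 0.22 above the highest. The means were 14.36 ± 0.10 and 15.07 ± 0.38 (SD, n = 3), a log2 difference of 0.71 or 1.63-fold.

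Junb gave log2 signals of 15.24, 15.79 and 15.50 in Nrf2 (+/+) mice and of 15.85, 16.42 and 16.32 in Nrf2 (-/-) mice. Its genotypes were the least separated, as Nrf2 (-/-) replicate 1 lay only 0.067 above Nrf2 (+/+) replicate 2. The means were 15.51 ± 0.27 and 16.20 ± 0.30 (SD, n = 3), a log2 difference of 0.69 or 1.61-fold.

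For Nr4a1 the log2 signals were 9.88, 10.59 and 10.35 in Nrf2 (+/+) mice and 11.05, 10.88 and 11.10 in Nrf2 (-/-) mice. As for Arc, the wild-type mice were more spread out than the knockout mice, and in contrast to the other 4 genes the lowest knockout array was replicate 2, at 0.28 above the highest wild-type array. The means were 10.28 ± 0.36 and 11.01 ± 0.12 (SD, n = 3), a log2 difference of 0.73 or 1.66-fold.

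**Figure D1:**
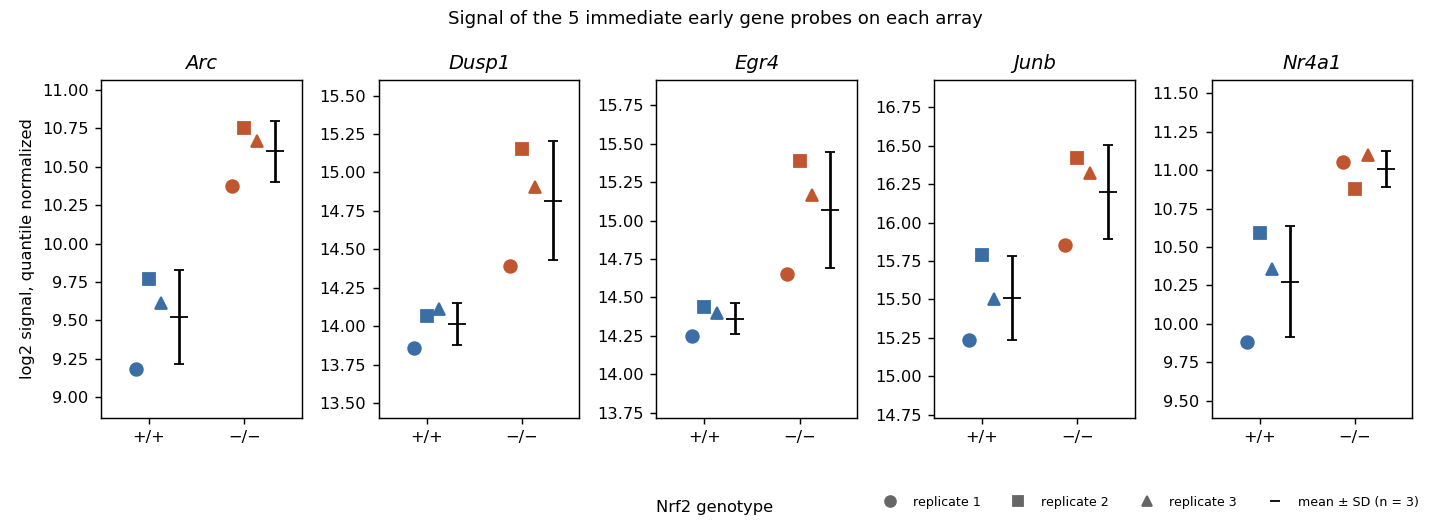
Log2 signal (quantile normalized, vertical axes of equal length) of the 5 probes on each array by Nrf2 genotype, with 1 symbol per replicate number and the mean ± SD (n = 3) in black. Nrf2 (-/-) arrays are above Nrf2 (+/+) arrays in each panel, with the smallest gap for Junb, and replicate 1 (circle) is the lowest knockout array in all panels but that of Nr4a1.

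The median log2 difference of the 5 probes was 0.73, beside -0.0078 over all 43528 tested probes. All 3 Nrf2 (-/-) arrays were above all 3 Nrf2 (+/+) arrays for 5 of the 5 genes and for 4.25% of the 43366 tested probes with a value on every array. By limma, 544 tested probes (1.25%) were higher in Nrf2 (-/-) mice at the study's limits for mRNAs, and 1156 were lower. The 5 genes were among the higher probes. These limits, p under 0.05 and a fold change above 1.5, were applied to mRNA and lncRNA probes alike. For lncRNAs the study set a higher limit of fold change. At an adjusted p under 0.05, 6 probes were higher and 15 lower, and none of the 5 genes was among them. The choice of the genes fixed these counts, from which nothing is read.

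The differences within scans are given for their size, as their direction follows from the separation of the arrays. Between the replicates 1 the log2 difference was 1.20 for Arc, 0.54 for Dusp1, 0.40 for Egr4, 0.61 for Junb and 1.17 for Nr4a1. Between the replicates 3 it was 1.06 for Arc, 0.79 for Dusp1, 0.77 for Egr4, 0.82 for Junb and 0.74 for Nr4a1. The 5 genes thus lay within 0.40 and 1.20 with 1 mouse of each genotype per scan, which allows no error. Dusp1, Egr4 and Junb had smaller differences between the replicates 1 than between the replicates 3, and Arc and Nr4a1 larger ones.

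The separation of 3 of the genes depended on the scaling of the arrays. When arrays were aligned at their 75th percentile in place of all quantiles, Arc and Nr4a1 still showed no overlap, with gaps of 0.60 and 0.29. For Dusp1, Egr4 and Junb the lowest knockout array, replicate 1, then lay within the wild-type range, at -0.072, -0.11 and -0.25 from the highest wild-type array. The log2 differences were 1.09 for Arc, 0.65 for Dusp1, 0.55 for Egr4, 0.44 for Junb and 0.71 for Nr4a1 on that scale, on which the knockout arrays were above all wild-type arrays for 5.49% of the tested probes. Over all 15 reference genes, the log2 differences ran from -0.23 to 0.77 after quantile normalization and from -0.44 to 0.64 after the shift, with Actb the highest in both. The 5 reference genes with a mean log2 signal above 15 differed by -0.057 to 0.068 after quantile normalization. That method aligns the brightest signals of all arrays, so this small range is partly set by it. After the shift they differed by -0.44 to -0.25. Both genotype means of Junb were also above 15, and which scaling is the better one for Junb was not tested. Under this shift, 1003 probes were higher and 976 lower in Nrf2 (-/-) mice at the study's mRNA limits, applied to all tested probes.

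**Figure D2:**
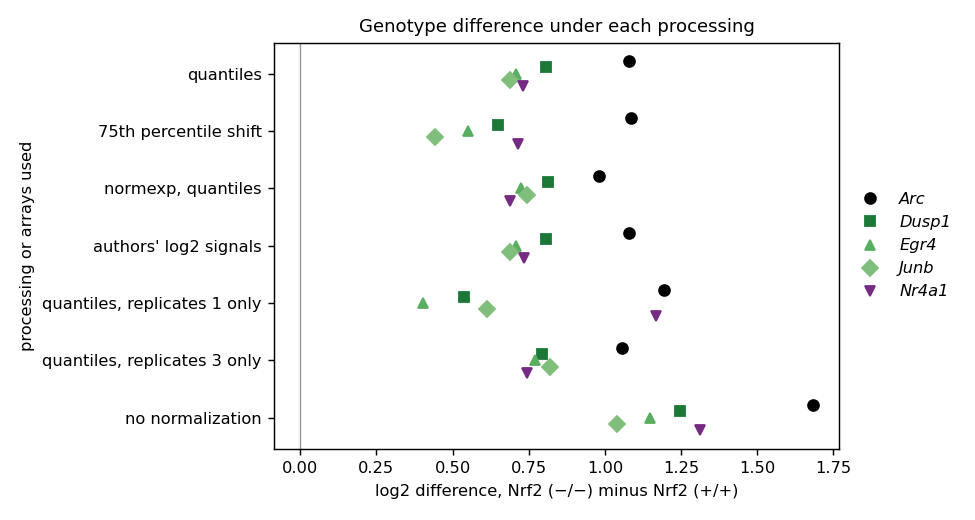
Log2 difference between the genotype means, Nrf2 (-/-) minus Nrf2 (+/+), for the 5 genes (symbols) under 4 ways of processing, for replicates 1 or 3 alone and with no normalization between arrays. The values run from 0.40 for Egr4 between the replicates 1 to 1.68 for Arc with no normalization, where all tested probes had a median difference of 0.62.

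Whether the genes move together was examined on the deviations of each mouse from the mean of its genotype. A correlation of the signals themselves over the 6 arrays was not computed, as the genotypes form separate clusters. The deviations ran from -0.42 to 0.33 on the log2 scale, and the smallest were within the spread between spots of the reference genes, as for Junb in Nrf2 (+/+) replicate 3 at -0.0069. Each value comes from 1 spot, for which Feature Extraction gave an error of 10.0% to 10.1% of the signal.

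Nrf2 (+/+) replicate 1 was the lowest wild-type array for 5 of the 5 genes, by 0.11 for Egr4 to 0.39 for Nr4a1 below the mean. The same holds for 27.2% of all tested probes. With the 75th percentile shift, Nrf2 (+/+) replicate 1 was the lowest for 4 of 5 genes, and for Egr4 replicate 2 was lower. Nrf2 (+/+) replicate 2 was the highest for 4 of 5 genes (34.8% of the probes), and for Dusp1 replicate 3 stood 0.10 above the mean and replicate 2 only 0.052.

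In the knockout, Nrf2 (-/-) replicate 1 was the lowest array for Arc, Dusp1, Egr4 and Junb (25.6% of the probes), at deviations of -0.22, -0.42, -0.42 and -0.35. Nrf2 (-/-) replicate 2 was the highest for the same 4 genes (39.3% of the probes), at 0.15, 0.33, 0.32 and 0.22. Nr4a1 had the opposite signs, with a deviation of 0.043 in replicate 1 and of -0.13 in replicate 2. The first of these is smaller than the median SD between reference spots on that array, 0.057. Whether these 2 values exceed the error of a single spot was not tested. Both replicates 1 were the lowest of their genotype for 4 of 5 genes and for 6.17% of the tested probes, and these 2 arrays shared a scan.

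**Figure D3:**
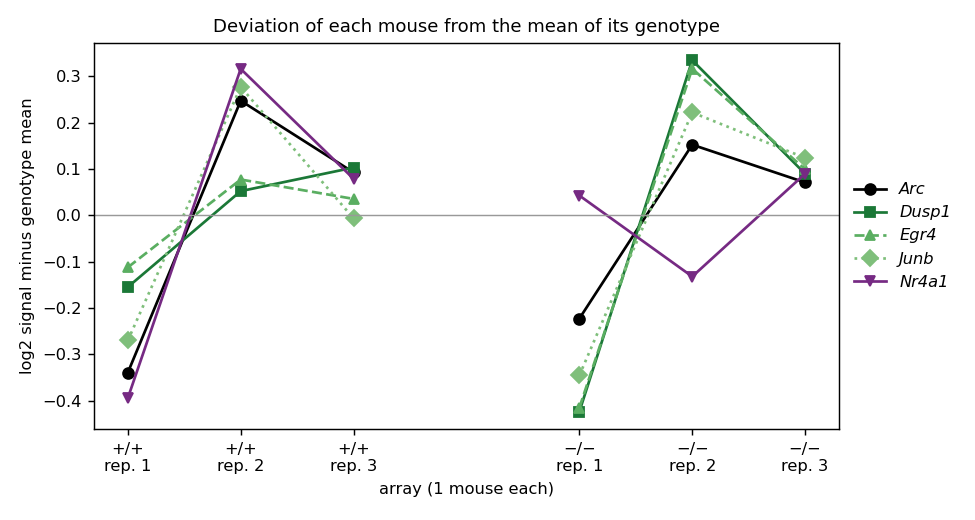
Deviation of each array from the mean of its genotype (log2 signal, vertical axis) for the 6 mice (horizontal axis), with 1 line per gene that joins its values and implies no order of the mice. All 5 lines lie below 0 in Nrf2 (+/+) replicate 1. In Nrf2 (-/-) replicates 1 and 2 the Nr4a1 values, 0.043 and -0.13, have the opposite sign to those of the other 4 genes.

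The correlations of the deviations over the 6 arrays were positive for 10 of 10 pairs, with a mean Pearson's r of 0.66 and a range of 0.071 to 0.99. Spearman's rho was positive for 10 of 10 pairs as well, from 0.086 to 0.89. Each pair was tested by an exact two-sided permutation test that shuffles mice within genotypes, which has 36 arrangements and gives no p below 0.0278. The test takes no account of the scans that both replicates 1 and both replicates 3 shared. A value common to both arrays of a scan therefore counts as 2 separate mice. After Benjamini-Hochberg adjustment over the 10 pairs, 0 pairs had an adjusted p under 0.05, and 3 had an unadjusted p at the smallest value the test allows. An adjusted p under 0.05 needs most of the 10 pairs to reach that smallest value together, so nothing is read from the 0. The adjusted p ran from 0.0926 to 0.861 for r, and the lowest for rho was 0.278 (exact permutation test, n = 6). Since 2 means were removed, 6 deviations hold only 4 independent values.

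Dusp1 and Egr4 had the highest r of the 10 pairs, with r = 0.99 and rho = 0.83 (exact permutation p = 0.0556 and 0.139, adjusted p = 0.0926 and 0.347). Each r was also computed without 2 arrays, those farthest from the median deviation of the pair's first gene in the order Arc, Dusp1, Egr4, Junb, Nr4a1. The second gene did not enter this choice. For Dusp1 and Egr4 these were Nrf2 (-/-) replicates 1 and 2, and r was 0.92 without them. Arc and Junb followed with r = 0.94 and had the highest rho, 0.89 (exact permutation p = 0.0278 and 0.0833, adjusted p = 0.0926 and 0.347). Their r was 0.81 without both replicates 1, the farthest arrays for Arc.

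Junb, the AP-1 subunit, was also close to the phosphatase and to Egr4. For Egr4 and Junb, r was 0.87 and rho 0.83 (exact permutation p = 0.0278 for each, adjusted p = 0.0926 and 0.278), with r = 0.92 without the 2 farthest arrays. For Dusp1 and Junb, r was 0.86 and rho 0.60 (exact permutation p = 0.0556 and 0.278, adjusted p = 0.0926 and 0.451), with r = 0.76 without these arrays.

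Arc correlated less with Dusp1 (r = 0.76, rho = 0.60; exact permutation p = 0.0556 and 0.25, adjusted p = 0.0926 and 0.451) and with Egr4 (r = 0.74, rho = 0.66; exact permutation p = 0.0278 and 0.111, adjusted p = 0.0926 and 0.347). With both replicates 1 left out, the farthest arrays for Arc, r was -0.059 and 0.11. Leaving out Nrf2 (-/-) replicates 1 and 2, the farthest for Dusp1 and Egr4, was not run for these pairs.

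The r of Nr4a1 was close to 0 with Dusp1 and Egr4 and higher with Arc and Junb, and differences between pairs were not tested. With Arc it had r = 0.71 and rho = 0.60 (exact permutation p = 0.306 and 0.361, adjusted p = 0.437 and 0.451), and with Junb r = 0.52 and rho = 0.54 (exact permutation p = 0.361 for each, adjusted p = 0.451 for each). Without both replicates 1, these r were 0.51 and 0.21. With Dusp1 the r was 0.10 and the rho 0.086 (exact permutation p = 0.806 and 0.944, adjusted p = 0.861 and 0.944), and with Egr4 0.071 and 0.26 (exact permutation p = 0.861 and 0.611, adjusted p = 0.861 and 0.679). Without Nrf2 (-/-) replicates 1 and 2, the 2 farthest arrays for Dusp1 and for Egr4, r was 0.85 with Dusp1 and 0.92 with Egr4. Nr4a1 had the opposite sign in these same arrays, so that leaving them out removes the disagreement itself and nothing is read from the rise. The mean r of each gene with the other 4 was 0.80 for Junb, 0.79 for Arc, 0.68 for Dusp1, 0.67 for Egr4 and 0.35 for Nr4a1.

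**Figure D4:**
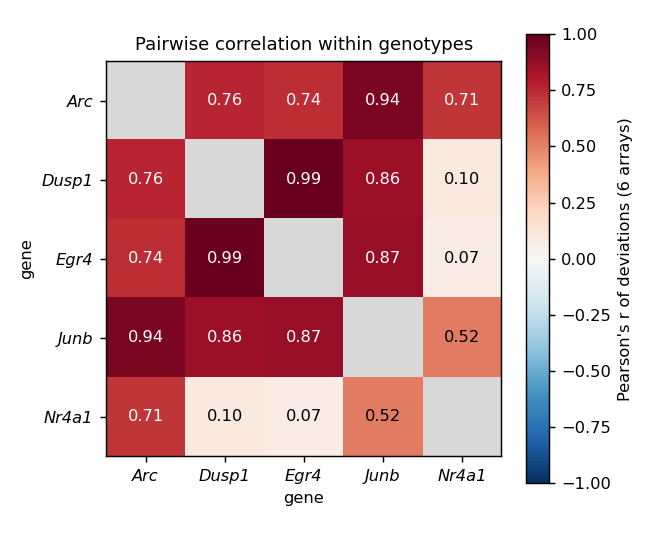
Pearson's r of the deviations from the genotype means over 6 arrays for the 10 pairs of genes (axes: genes; colour scale from -1 to 1; grey: same gene). The values are highest for Dusp1 with Egr4 (0.99) and Arc with Junb (0.94) and lowest for Nr4a1 with Egr4 (0.07) and Dusp1 (0.10).

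An r as high as in the highest pairs was also found among other probes. An r of 0.9 or more was reached with Arc by 1.04% of the other 43365 tested probes, with Dusp1 by 1.76%, with Egr4 by 1.83%, with Junb by 1.05% and with Nr4a1 by 1.44%. Of the other 4 immediate early genes, 1 reached it with each of Arc, Dusp1, Egr4 and Junb, and 0 with Nr4a1. The median r over all these probes was between -0.084 for Junb and 0.053 for Nr4a1.

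Among 326 other probes with a gene name here and a signal well above background on all arrays, the 5 most like the immediate early genes between mice of 1 genotype were those of Tex11, Hoxb2, Fkbp5, Omd and Foxc2, with a mean r of 0.84, 0.83, 0.80, 0.79 and 0.77 over 6 arrays. Tex11 is a gene of meiosis, Hoxb2 and Foxc2 encode transcription factors of development, Fkbp5 encodes a co-chaperone of the glucocorticoid receptor and Omd encodes osteomodulin, a proteoglycan of bone. Across genotypes, Tex11 and Hoxb2 were higher in Nrf2 (-/-) mice, as were the 5 genes, with log2 differences of 0.85 and 0.91. Fkbp5, Omd and Foxc2 were lower, with log2 differences of -0.71, -0.82 and -1.45. These probes were named through the study's list of changed mRNAs, so that each differs between the genotypes by choice, and no r of this kind was tested.

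The wider program of activity-induced genes could be followed only in part. Of 42 other activity-induced genes, such as Fos, Egr1 and Npas4, 0 were on the study's list of changed mRNAs, through which probes were named, so that none passed the study's limits as listed there. The list holds 412 (0.947%) of the 43528 tested probes of mRNAs and lncRNAs together, and the share of the mRNA probes alone was not known here, so that nothing is read from a count of 0. Their signals could not be read, and smaller differences were not examined. Among stimulus-induced secreted factors, Areg, a ligand of the EGF receptor, was lower in Nrf2 (-/-) mice by a log2 difference of -1.87 and Edn1, which encodes the vasoconstrictor endothelin, by -1.06. Of 10 glucocorticoid-induced genes, 2 were named, Fkbp5 and the transcription factor Zbtb16, the latter with a log2 difference of -0.64. The list through which they were named holds only genes that passed the same contrast, so these are values with no test.

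Cell type markers were under the same limit, since a marker is named only where the list holds it (0.947% of the tested probes), and nothing is read from the counts or directions below. Named markers of neurons were 1 of 8 (Camk4, log2 difference -0.70), with log2 signals of 10.4 to 10.7 in Nrf2 (+/+) and 9.45 to 10.0 in Nrf2 (-/-) mice, and of astrocytes 1 of 5 (Sox9, 0.73), with 9.53 to 9.93 and 10.2 to 10.6. For microglia 2 of 6 were named and both were higher, with a summed log2 signal of 10.3 to 10.9 in Nrf2 (+/+) and 11.2 to 11.5 in Nrf2 (-/-) mice. Ependymal markers were named for 3 of 4 genes, all higher, with 7.94 to 9.16 and 9.54 to 10.5. Most of that sum is Tmem212, with means of 8.48 and 10.0, while Tekt1 and Daw1 were well above background on only 3 of 6 arrays. Perivascular macrophage markers were named for 3 of 3 genes, all lower, with 8.79 to 9.09 and 7.35 to 8.11, and endothelial markers for 2 of 4 genes, both lower, with 15.1 to 15.3 and 14.4 to 14.7. None was named of 2 markers of dentate granule cells, 3 of oligodendrocytes and 2 of the choroid plexus, so that the tissue could be checked against its labels only through these few. The part of cell composition in the immediate early gene values was not tested.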

How the data were processed

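RNA freed of rRNA was amplified with random primers, labeled with Cy3 and hybridized to 1-dye arrays by the authors, whose probe design follows mm9. The deposited intensity files hold background-subtracted spot signals from Agilent Feature Extraction 11.0.1.1 (submitters' processing notes), not normalized between arrays. The authors also deposited log2 signals after quantile normalization in GeneSpring GX. Here, log2 intensities were averaged per probe without control and outlier spots and quantile-normalized, and the methods' filter was applied, which keeps a probe that is well above background on 3 or more of the 6 arrays. The files pair no probes with gene names. Names came from the study's list of changed mRNAs, whose 412 entries each matched 1 probe by fold change and p-value from the authors' log2 signals (relative tolerance 0.0001), used only as a key, and from RefSeq identifiers for the reference genes. The members, gene lists and motifs were chosen with earlier results of these data known.

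Genotypes were compared over all tested probes with limma 3.58.1 (R 4.3.3; lmFit, eBayes, Benjamini-Hochberg). In simulated data with 200 of 43366 probes changed, calls at an adjusted p under 0.05 numbered 0 of 50 at 1.5-fold, 0 of 50 at 2-fold, 23 of 50 at 4-fold and 43 of 50 at 16-fold, and 1 call was false. Pearson and Spearman correlations of deviations from genotype means were tested by exact permutation within genotypes (Python 3.11.15, scipy 1.17.1). Named genes were the members, Nfe2l2, the 5 named probes with the highest mean correlation with the members, and the listed genes (activity-induced, secreted, glucocorticoid-induced, cell type markers). An item of these lists is not reported here. Nothing says that replicate numbers pair the mice, and the reported comparisons use no pairs (a replicate block was an alternative). Alternatives were the 75th percentile shift, normexp (offset 50), the authors' log2 signals, outlier spots kept, other filters, the methods' test, an intensity trend, blocks and each array left out. Normexp was planned on the mean spot signal and run on the median, and arrays scanned together were taken as 1 slide.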

Additional observations from a re-analysis of the deposited data

How the results depend on the processing

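The log2 differences of the 5 genes ran from 0.40 to 1.68 over 90 recomputations, and 81 moved by less than the spread between mice. The sign is no sign of stability, as the genes were chosen by it and the separation of the arrays fixes it in every subset of arrays. The rest moved as follows. With no normalization between arrays, an alternative chosen after seeing the data, they were 1.68 for Arc, 1.25 for Dusp1, 1.15 for Egr4, 1.04 for Junb and 1.31 for Nr4a1, where all tested probes had a median of 0.62. The mean r of the deviations was 0.27 on that scale, which keeps differences between arrays in total signal, and Nrf2 (+/+) replicate 1 was then lowest for 2 genes. Within the scan session that held both replicates 1 and Nrf2 (-/-) replicate 2, Arc differed by 1.38 and Nr4a1 by 1.08, and between the replicates 1 alone Egr4 differed by 0.40 and Nr4a1 by 1.17. With the 75th percentile shift, 2 of 5 genes had no overlap, and the mean r was 0.55.

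Leaving out 1 array at a time, the differences ranged from 0.91 to 1.20 for Arc, 0.64 to 1.02 for Dusp1, 0.55 to 0.92 for Egr4, 0.55 to 0.86 for Junb and 0.53 to 0.89 for Nr4a1, and the mean r ranged from 0.47 to 0.77. The probes higher at the study's mRNA limits, applied to all tested probes, ranged from 353 to 2371. Leaving out Nrf2 (+/+) replicate 2 gave 2371 such probes, and leaving out Nrf2 (+/+) replicate 3 gave 353. They numbered 908 in the absence of Nrf2 (-/-) replicate 1 and 818 in that of Nrf2 (-/-) replicate 3. The probes lower ranged from 777 to 2011, with 2011 without Nrf2 (+/+) replicate 2.

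The count of 544 higher probes became 1003 with the 75th percentile shift, 226 with normexp, 2288 with arrays scanned together as a block, 362 with the filter on all 6 arrays, which tests fewer probes, and 286 by the methods' test, which gave 0 probes after Benjamini-Hochberg adjustment and 2535 at an unadjusted p under 0.05. The count of 1156 lower probes became 643 with normexp and 2607 with the scan block. The cause of the other changes was not tested. With the replicate block, 1235 probes were higher and 1386 lower, and the differences of the 5 genes were those given, as the groups are balanced. The correlation over probes of the deviations of same-numbered mice was -0.15, 0.43 and 0.81 for replicates 1, 2 and 3. Between mice of different numbers it ran from -0.67 to 0.23. As replicates 1 differ from replicates 2 and 3, these values do not settle whether the numbers pair the mice. The 75th percentile shift for other listed genes was not run, as none had a probe named independently of the contrast.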
